A study of Rattus norvegicus with 12 samples.

Results

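The genes described here were 10 astrocyte and Bergmann glia genes, taken as the probes whose gene name in the array files equalled Gfap, Slc1a3, Slc1a2, Aqp4, Aldh1l1, S100b, Fabp7, Gja1, Glul or Sox9. Of these 10 genes, 9 had a probe, against 20504 gene names with a probe tested in all, and no value is given for Sox9. The 9 genes had 15 probes on 42 spots, and all 15 probes passed the filter on low signal. The data came from neuron-enriched cultures of the cerebellum of Sprague-Dawley rats aged 1 day. RNA was taken at 16 days in vitro from 6 control cultures and from 6 cultures exposed to acetamiprid (ACE), a neonicotinoid insecticide that binds nicotinic acetylcholine receptors. ACE was present at 1 µM from day 2 on and was renewed at each partial change of medium, every 2 days, and both groups held 0.001% dimethyl sulfoxide, the vehicle. Both groups also shared 1% serum for the first 8 days and serum-free medium after that. Cells of the newborns of a litter were pooled into a culture lot, and both arrays of a replicate number came from the same lot, so that a replicate is a culture experiment and not an animal. Cultures exposed to nicotine or imidacloprid were not analysed here.

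Astrocytes take up glutamate and potassium released by neurons, supply glutamine and lactate, regulate water and are coupled to each other by gap junctions. Bergmann glia are the radial astrocytes of the cerebellar cortex, whose fibres guide migrating granule cells and later ensheath the synapses on Purkinje cell dendrites. In dissociated cultures both are grown together with neurons, and their transcripts are read from the mixed RNA, so that fewer cells of a type and less RNA per cell cannot be told apart.

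The labelled cell mixture was checked on these genes first. Signal of all 15 probes was well above background on all 12 arrays, so astrocyte transcripts were present in every culture. The arrays lay on 6 slides, 1 for each replicate, with control always at place 1 and ACE at place 3, so that an effect of place cannot be told apart from that of ACE. Whole slides formed 4 scan batches, in which replicates 1, 2 and 3 were each scanned alone and replicates 4, 5 and 6 together, and the arrays of replicate 1 were extracted with an older software version. Brightness, as the 75th percentile of the processed intensity, ranged from 1803 to 4384 over the 12 arrays before normalisation. Skeletal muscle transcripts stood apart: the mean log2 intensity of 8 muscle genes was 11.11 and 11.72 in control replicates 1 and 2, 9.29 in control replicate 6 and 10.46 in ACE replicate 1, against 7.32 to 7.77 on the other 8 arrays.

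Several probes read 5 of the 9 genes, and their positions matter for the results on the replicate cultures. By the array files, on the rat build rn4, the lead probe of Aqp4 (the probe with the highest mean signal, which stands for the gene below) covered chr18:6626431-6626490 on the minus strand, and its other probes chr18:6629662-6629721 and chr18:6630285-6630344. The lead probe of S100b covered chr20:12791789-12791848 on the minus strand and its second probe chr20:12791899-12791958, only 110 bases away. In all 5 genes with more than 1 probe, the lead probe was the one nearest to the 3′ end of the gene's strand. The files did not say in which exon or untranslated part a probe lay. The 60-base probes of Aqp4 and S100b are shown, by bases 1 to 30, because probes of the same gene gave different patterns there, and that of Glul, because it had the largest difference after exposure.
Aqp4 A_44_P561166, lead: atcacccagatcacgataaacctgcaactt
Aqp4 A_64_P036063: attcactataatccttcttccccctcagca
Aqp4 A_64_P018751: gaccgtggagacgagaagaaggggaaggac
S100b A_64_P109327, lead: atcaaaattctgctcagtagacgtctcctt
S100b A_43_P15530: acagcgaatcgcggtttgttaccaagtacg
Glul A_44_P381069: ttaaattttttaaagcaaaacaagtttaga

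The comparison of control versus ACE (CvA) asked whether exposure up to day 16 changed the expression of glial genes beyond the spread between culture pairs. For these genes the differences were small and none passed the test: 0 of 15 member probes had an adjusted p under 0.05 by limma, as did 0 of all 23796 probes (0%). Of the 9 lead probes, 8 were lower in ACE and 1, Slc1a2, was higher. The differences ran from -0.13 to 0.044 on the log2 scale, with a median of -0.066 and a median absolute difference of 0.066. Over all probes tested, the median difference was -0.0050, the median absolute difference was 0.062 and 52.2% of probes were lower, so that the members differed in size about as much as other probes. The 95% intervals of the lead probes reached from -0.24 at the lowest to 0.18 at the highest. Leaving out replicate 3 moved the median of the lead probes to -0.043, with 8 of 9 still lower.

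At an unadjusted p under 0.05, 2 of the 15 member probes were lower in ACE and 0 were higher. Over all probes, 9.73% were lower and 6.9% were higher at this threshold, so that the share of members was near the background. Lower in all 6 pairs was 1 member probe, that of Glul, against 6.86% of all probes, and higher in all 6 pairs was 0, against 4.72%. The 9 lead probes gave 54 pair differences, of which 38 were below 0. They were spread over the cultures, with between 4 and 8 of 9 genes lower in each pair.

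**Figure D1:**
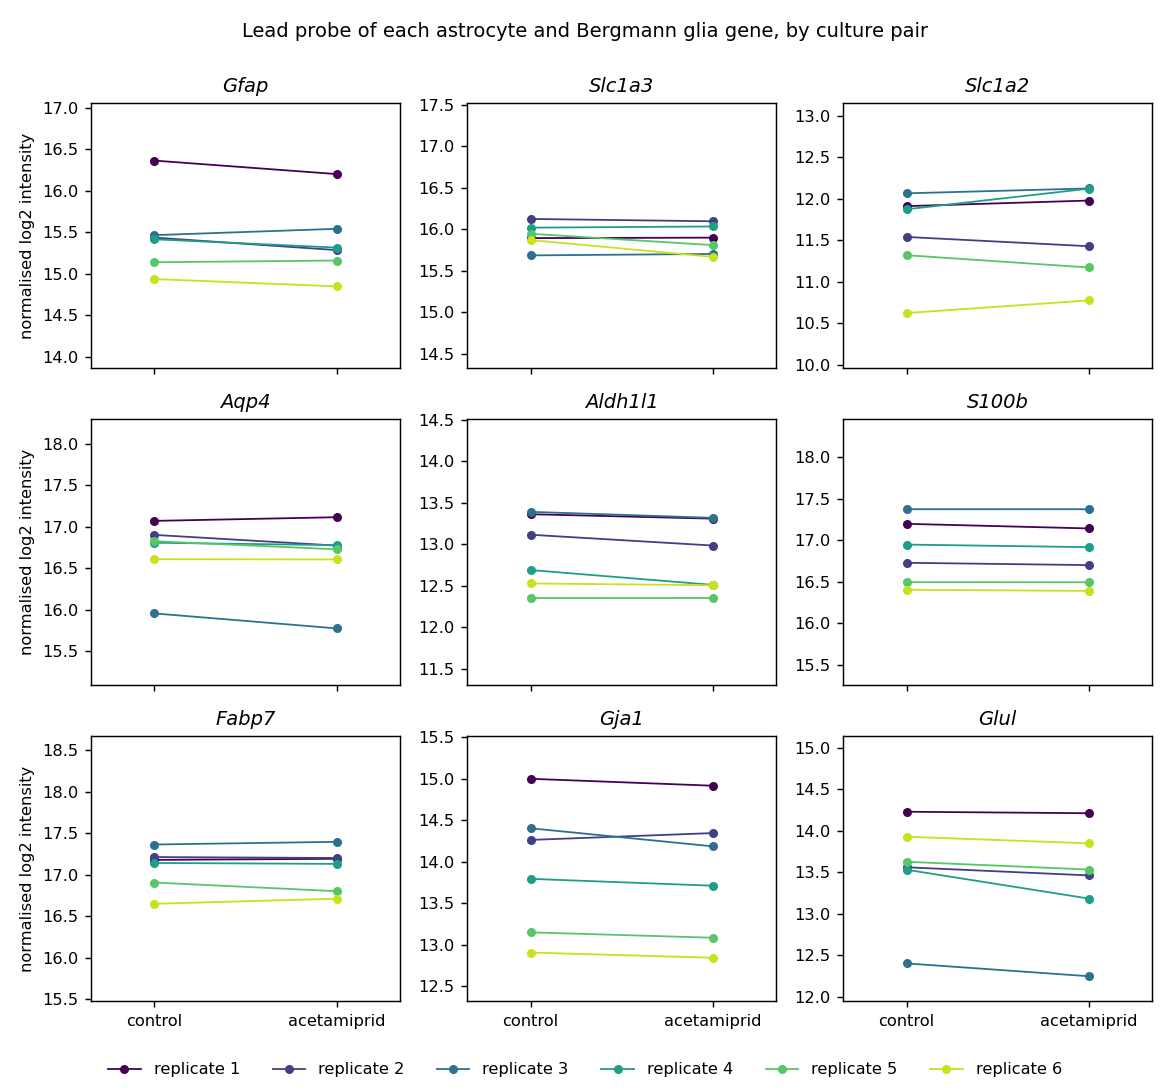
Normalised log2 intensity of the lead probe of each of the 9 genes (vertical axes, all of the same height in log2 units) in control and ACE arrays (horizontal axis). Points are single arrays and lines join the control and ACE array of a replicate; the lines are nearly flat, and they lie far apart from each other in Gja1 and Glul.

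Glutamate handling held both the largest difference and the only higher lead probe. Glul encodes glutamine synthetase, the astrocyte enzyme that turns glutamate into glutamine. Its log2 intensity was 12.40 at the lowest, 13.59 at the median and 14.23 at the highest in control, and 12.24, 13.49 and 14.21 in ACE. The groups overlapped almost fully, yet the ACE array was below its control in all 6 pairs. The pair differences were -0.018, -0.098, -0.15, -0.35, -0.094 and -0.079 for replicates 1 to 6, the largest in replicate 4. Glul was thus lower by -0.13 ± 0.046 (SE, n = 6 pairs), a fold of 0.913, with an adjusted limma p of 0.242 and an unadjusted p of 0.0257. By the exact signed-rank test its p was 0.03125, the smallest that 6 pairs can give. Without replicate 4 the difference was -0.089 (limma, unadjusted p = 0.0299), and without replicate 3 its unadjusted p was 0.0608. With normexp background correction the difference was -0.11 (limma, unadjusted p = 0.0523). Its unadjusted limma p rose further, to 0.172, with the replicate as a random block and to 0.709 with no block.

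Slc1a3 and Slc1a2 encode GLAST and GLT-1, the plasma membrane glutamate transporters of astrocytes, of which GLAST prevails in Bergmann glia. Slc1a3 was at 15.68, 15.92 and 16.12 (lowest, median and highest log2 intensity) in control and at 15.67, 15.85 and 16.10 in ACE, so that the groups overlapped fully. Its difference was -0.055 ± 0.039 with 3 of 6 pairs lower, and it was -0.026 without replicate 6 and -0.029 with normexp background correction. Its second probe gave -0.11 ± 0.076 with 5 of 6 lower. Slc1a2 was at 10.62, 11.71 and 12.06 in control and at 10.77, 11.70 and 12.12 in ACE, with replicate 6 lowest in both groups. Its difference was 0.044 ± 0.058 with 4 of 6 pairs higher, and single replicates moved it, to 0.0037 without replicate 4, 0.023 without 6, 0.076 without 2 and 0.083 without 5. Its second probe, 3895 bases away, gave 0.037 ± 0.048. The 2 transporters differed from 0 by less than the SD between pairs, 0.093 for Slc1a3 and 0.15 for Slc1a2. The same held for the lead probes of Gfap, Aqp4, Fabp7 and Gja1. The adjusted limma p was 0.502 for Slc1a3 and 0.721 for Slc1a2.

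Gfap, the intermediate filament of astrocytes, was at 14.93, 15.42 and 16.36 in control and at 14.85, 15.30 and 16.20 in ACE. The highest values of both groups came from replicate 1, and the groups overlapped. Its lead probe was lower by -0.067 ± 0.040 (limma, adjusted p = 0.435), with 4 of 6 pairs lower, and without replicate 3 its unadjusted limma p was 0.0416. Its second probe, 2257 bases away, had the opposite sign, 0.017 ± 0.059, with 4 of 6 pairs higher, so that no direction holds for the gene. S100b encodes a calcium-binding protein that astrocytes also secrete. Its lead probe was at 16.40, 16.84 and 17.37 in control and at 16.39, 16.81 and 17.37 in ACE. The groups overlapped fully, and it differed by -0.022 ± 0.022, was lower in 5 of 6 pairs and was at -0.055 with the 75th percentile shift, -0.013 with normexp and -0.011 in pairs 3, 4 and 5. The second S100b probe differed by more, -0.12 ± 0.040 (limma, unadjusted p = 0.0196, adjusted p = 0.223), with 5 of 6 pairs lower. Its unadjusted limma p was above 0.05 when replicate 1, 2, 3 or 4 was left out (0.0534, 0.0509, 0.0550 and 0.0553), and by the exact signed-rank test it was 0.0625. With the replicate as a random block the unadjusted limma p of this probe was 0.335, in pairs 3, 4 and 5 it was 0.142, and with normexp it was lower, 0.00205.

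Aldh1l1, a folate enzyme used as a marker of astrocytes at large, was at 12.35, 12.90 and 13.39 in control and at 12.35, 12.75 and 13.32 in ACE, and the groups overlapped. Its difference was -0.076 ± 0.032 (limma, unadjusted p = 0.0507, adjusted p = 0.302) with 5 of 6 pairs lower, and the remaining pair, replicate 5, was at 0.00064. Its unadjusted limma p was 0.0399 without replicate 5, and its difference was -0.038 with normexp. Fabp7, a brain lipid-binding protein of radial glia and Bergmann glia, was at 16.65, 17.16 and 17.36 in control and at 16.71, 17.16 and 17.39 in ACE. Its difference was -0.0034 ± 0.029 (limma, adjusted p = 0.961), with 3 of 6 pairs lower, and it was -0.055 with a 75th percentile shift in place of quantile normalisation, -0.037 with normexp and 0.017 without replicate 5. Its interval was -0.073 to 0.066. Aqp4, the water channel of astrocyte end-feet, was at 15.96, 16.82 and 17.07 in control and at 15.78, 16.75 and 17.11 in ACE, with replicate 3 lowest in both groups. Its 3 probes gave -0.066 ± 0.037, -0.079 ± 0.057 and -0.093 ± 0.045, with 5, 4 and 4 of 6 pairs lower, all below 0, and the lead probe was at -0.043 without replicate 3, -0.10 with the 75th percentile shift and -0.10 in pairs 3, 4 and 5. Gja1 encodes the main gap junction protein of astrocytes, and was at 12.90, 14.03 and 15.00 in control and at 12.84, 13.95 and 14.91 in ACE, with replicate 1 highest and replicate 6 lowest in both groups. Its difference was -0.071 ± 0.040 (limma, adjusted p = 0.410) with 5 of 6 pairs lower, all but replicate 2. It was -0.042 without replicate 3 and -0.10 without replicate 2, where its unadjusted limma p was 0.0302.

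**Figure D2:**
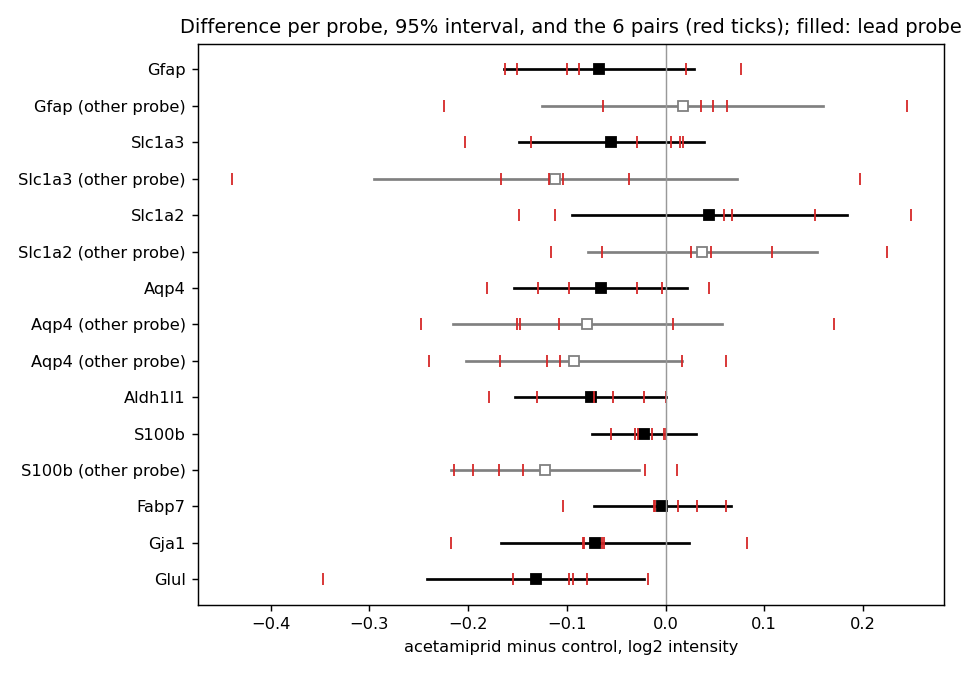
ACE minus control in log2 intensity (horizontal axis) for the 15 member probes (vertical axis). Squares are limma estimates (filled for lead probes, open for other probes), bars are 95% intervals and red ticks are the 6 culture pairs; only Glul and the second S100b probe have an interval that does not reach 0.

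A check on the arrays with muscle transcripts was made with pairs 3, 4 and 5 alone, in which all 6 arrays were low in muscle genes. In these pairs the median of the lead probes was -0.035, with 8 of 9 lower. Glul was at -0.20 ± 0.073, Gja1 at -0.12 ± 0.057 and Gfap at -0.0013 ± 0.059, and no member probe had an unadjusted limma p under 0.05 (0 of 15, with 0 at an adjusted p under 0.05), as against 1610 of all 23621 probes tested in these pairs. The part of muscle transcripts in the differences over 6 pairs was not tested. Within the 3 pairs scanned together, the signs of the 9 lead probes were those found over 6 pairs, with Glul at -0.17, Slc1a3 at -0.11, Gja1 at -0.070, Aldh1l1 at -0.066 and Gfap at -0.056. In the other 3 pairs Glul was at -0.090 and Slc1a3 at -0.0018, and Fabp7 changed sign, to 0.011.

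Other astrocyte genes were read from 9 companion lists of 100 genes, of which 96 were tested. Their median difference was 0.0012, with 47 lower and 49 higher, and 0 had an adjusted p under 0.05 by limma. At an unadjusted p under 0.05, 9 were higher in ACE and 1 was lower, where 6.9% of all probes were higher and 9.73% lower. The genes of glutamate and glutamine handling had a median of 0.027 over 11 genes, with Grm5, the glial and neuronal metabotropic glutamate receptor 5, at 0.17 ± 0.057. Ion, water and end-foot proteins had a median of 0.0026 over 10 genes tested, with Trpv4, an osmosensitive cation channel, at 0.13 ± 0.047.

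The 8 genes of gap junctions and adhesion had a median of 0.040, with 3 lower and 5 higher. Gja5, a connexin best known from vessels and heart, was at 0.25 ± 0.049 (limma, adjusted p = 0.143), and Gjc1, a connexin that the array names Gja7, was at 0.14 ± 0.036 (limma, adjusted p = 0.183), both higher in 6 of 6 pairs, as were 4.72% of all probes. Ptprz1, a receptor phosphatase of glial precursors, was at -0.062 ± 0.025 and lower in 6 of 6 pairs. The other connexins, Gjb2 and Gjb6, were at -0.16 ± 0.27 and -0.0065 ± 0.10, each higher in 4 of 6 pairs, and were named beside them after their values were seen.

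Metabolic, lipid and secreted proteins had a median of 0.0043 over 15 genes, with the fatty acid synthase Fasn at 0.12 ± 0.042. Of the 4 genes listed as glial intermediate filaments, 3 were lower and 1 was higher, with a median of -0.042. The higher gene was Synm, synemin, at 0.087 ± 0.031 and higher in 6 of 6 pairs. Des, desmin, is chiefly a muscle filament, but was counted among these 4. It was at -1.66 ± 0.76 and lower in 6 of 6 pairs, and was named after its value was seen. Its control arrays were spread by 2.59 (SD, n = 6), near the 2.46 of the muscle gene Acta1. Glial transcription factors and Notch targets had a median of -0.017 over 13 genes, with the Notch effector Hes1 at 0.17 ± 0.064.

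Of the 8 other Bergmann glia markers, 4 were lower and 4 higher, with a median of 0.0074. Gdf10, a growth factor of Bergmann glia, was at 0.20 ± 0.056 and higher in 6 of 6 pairs, but was well above background on 4 of 6 control and 5 of 6 ACE arrays. Hopx, a homeodomain-only protein of radial glia, was at 0.12 ± 0.038 and higher in 5 of 6 pairs. Among 18 reactive astrocyte genes, 13 were higher and 5 lower with 0 at an unadjusted p under 0.05, and the lowest p was that of the pentraxin Ptx3 (0.10 ± 0.047, limma unadjusted p = 0.0666). Synaptogenic and phagocytic factors were lower for 8 of 9 genes tested, with a median of -0.053, and the alarmin Il33 had the lowest p there (-0.088 ± 0.038, limma unadjusted p = 0.0582, lower in 6 of 6 pairs).

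The replicate cultures differed far more than the groups. By limma's F-test of the replicate block, 14 of 15 member probes and 9 of 9 lead probes had an adjusted p under 0.05, the exception being the second Slc1a3 probe (adjusted p = 0.0566). This test called 83.9% of all probes, so that a call is no mark of these genes. In size, the members differed more than the median probe: the range over the 6 replicate means had a median of 1.23 on the log2 scale for the lead probes, against 0.762 for all probes. Over replicates 2 to 6, without the replicate extracted with older software, these medians were 0.977 and 0.598. The spread between pairs in the CvA difference ran the other way, with a median SD of 0.093 for the lead probes against 0.13 for all probes. Both are descriptions, and no test was made of the members against other probes. Lead probes were chosen for high signal, and the part of signal level in these spreads was not tested.

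The widest lead probe was that of Gja1, with replicate means of 1.07, 0.42, 0.41, -0.13, -0.77 and -1.01 around its own mean for replicates 1 to 6, a range of 4.24-fold (limma F, adjusted p = 2.13e-05). Replicates 2 and 3 lay close together and changed places between control and ACE, while the order of the other cultures was the same in both groups. Gfap had its highest culture in replicate 1 (0.86) and its lowest in replicate 6 (-0.53), and Slc1a2 its lowest in replicate 6 (-0.88). Aldh1l1, S100b and Fabp7 were highest in replicate 3, at 0.49, 0.53 and 0.31. Over the 9 lead probes, replicate 6 was lowest for 5 genes and replicates 1 and 3 were each highest for 4.

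The lead probes of Glul and Aqp4 stood apart from this order, since replicate 3 was their lowest culture. Glul was at 0.74, 0.031, -1.16, -0.12, 0.099 and 0.41 for replicates 1 to 6, so that replicate 6, low for most other members, was its second highest (limma F, adjusted p = 4.92e-05, a range of 3.72-fold). The lead probe of Aqp4 was at -0.80 in replicate 3 and between -0.054 and 0.43 in the others. Slc1a3 varied least, by 1.33-fold (limma F, adjusted p = 0.00756), with replicate 3 as the lowest culture of its lead probe (-0.20) and replicate 6 as that of its second probe (-0.24).

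**Figure D3:**
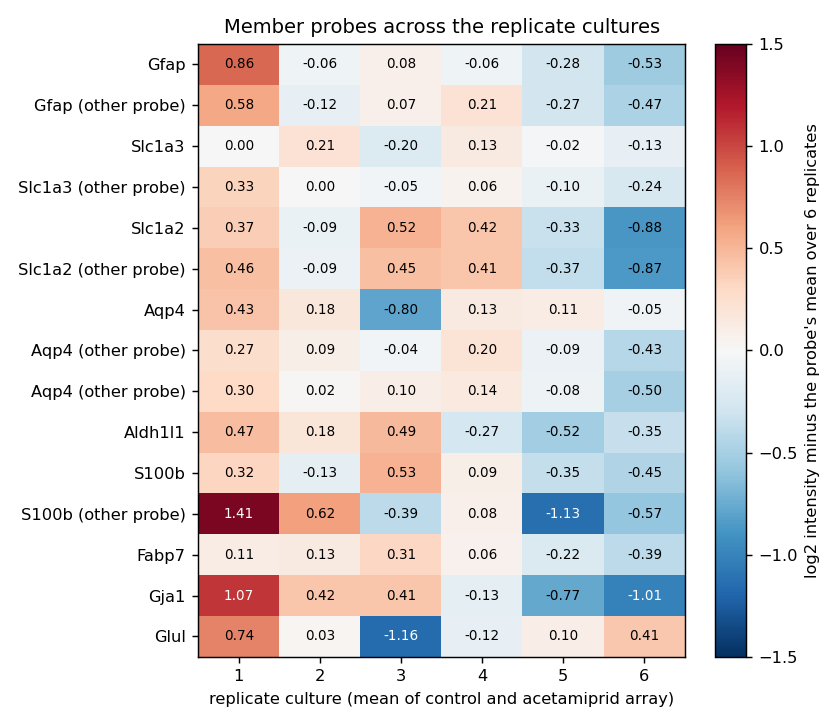
Log2 intensity of the 15 member probes (rows) in the 6 replicate cultures (columns, mean of the control and ACE array), as the difference from the probe's mean over the replicates. Red is above and blue below that mean. Replicate 6 is below the mean for all probes but that of Glul. Replicate 3 is lowest for Glul (-1.16) and the lead probes of Aqp4 (-0.80) and Slc1a3 (-0.20).

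Probes of the same gene did not always show the same cultures as low. For Slc1a2, the 2 probes differed by at most 0.090 in any replicate. For Aqp4, the lead probe put replicate 3 lowest, but the other probes were at -0.036 and 0.10 there and put replicate 6 lowest, at -0.43 and -0.50. The probes of Slc1a3 differed by up to 0.33, in replicate 1. The gap between the lead and the other Aqp4 probes was -0.76 and -0.90 in replicate 3. For S100b, the lead probe had replicate 3 as its highest culture (0.53) while the second probe was at -0.39 there. The second probe had a range of 5.82-fold, with 1.41 in replicate 1 and -1.13 in replicate 5. For Gfap, the lead minus the second probe was 0.28 in replicate 1 and -0.27 in replicate 4. The culture order of Aqp4, S100b, Slc1a3 and Gfap therefore depended on the probe. The CvA difference kept its sign between the probes of Aqp4, S100b and Slc1a3, but not between those of Gfap (-0.067 and 0.017).

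Base composition of the probes was set beside these values. The lead probes of Aqp4 and Glul held 35% and 23.3% G and C, and both probes of S100b held 45%. The lead probes of Gja1 and Slc1a3 also held 35%, and in replicate 3 they were at 0.41 and -0.20. Among probes well above background on all arrays, over 3456 probes with at most 35% G and C, the median in replicate 3 was 0.11 above the probe mean, while over the 374 probes richest in G and C it was -0.53. The part of base composition in the values of these probes was not tested.

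**Figure D4:**
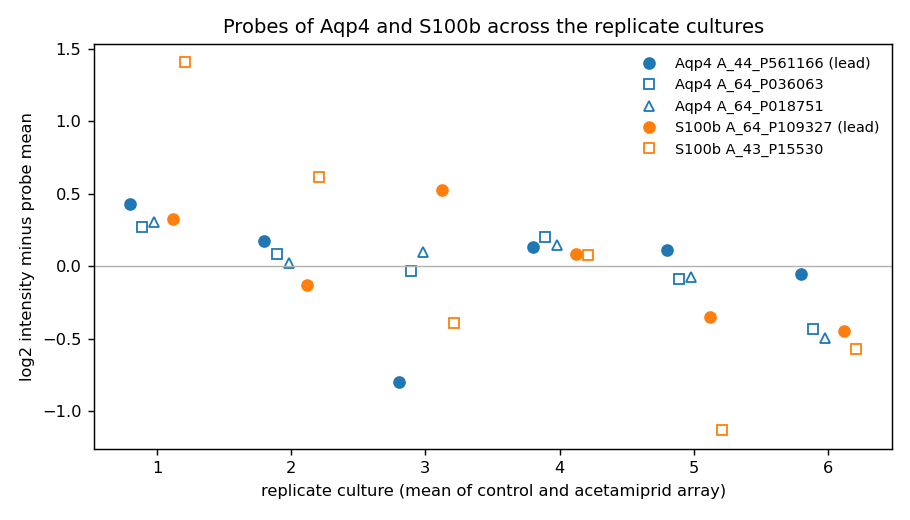
Log2 intensity minus the probe's mean (vertical axis) for the 3 probes of Aqp4 (blue) and the 2 of S100b (orange) in each replicate culture (horizontal axis, mean of the control and ACE array). Filled circles are lead probes; in replicate 3 that of Aqp4 lies at -0.80, below its other probes, and that of S100b at 0.53, above its second probe.

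Culture and slide were the same factor in all 6 replicates and cannot be told apart, and for replicates 1, 2 and 3 the scan was the same factor too. Replicates 4, 5 and 6 were scanned together from separate slides, and among them 3 of 9 lead probes and 6 of 15 member probes still differed between replicates (limma F, adjusted p under 0.05), against 8.91% of all probes. The 3 lead probes were those of Slc1a2 (range 1.30, adjusted p = 0.0457), S100b (range 0.54, adjusted p = 0.0428) and Gja1 (range 0.88, adjusted p = 0.0418), and in each of them replicate 4 was highest and replicate 6 lowest. The second S100b probe also passed (range 1.21, adjusted p = 0.0421) but had replicate 5 lowest. Gfap had the order of the 3 lead probes in both of its probes, with a range of 0.47 for the lead probe, which did not pass (limma F, adjusted p = 0.0532), and of 0.69 for the second, which did (adjusted p = 0.0429). The median range within this batch was 0.473 for the lead probes and 0.275 for all probes.

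Markers of other cells were read in the same cultures. The mean over the members was highest in replicate 1 (15.35 in control, 15.33 in ACE) and lowest in replicate 6 (14.49 and 14.46). The mean over 10 oligodendrocyte lineage markers ran the other way, at 13.92 and 13.88 in replicate 1, 13.90 and 13.95 in replicate 2 and 14.65 and 14.73 in replicate 6, its highest. Neuron markers were highest in replicate 4 (10.27 and 10.30), and their lowest arrays were control replicate 1 (9.74) and ACE replicate 6 (9.80). Counts of stained cells made by the study were not used here, and the part of the cell mixture in the members' values was not tested.

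**Figure D5:**
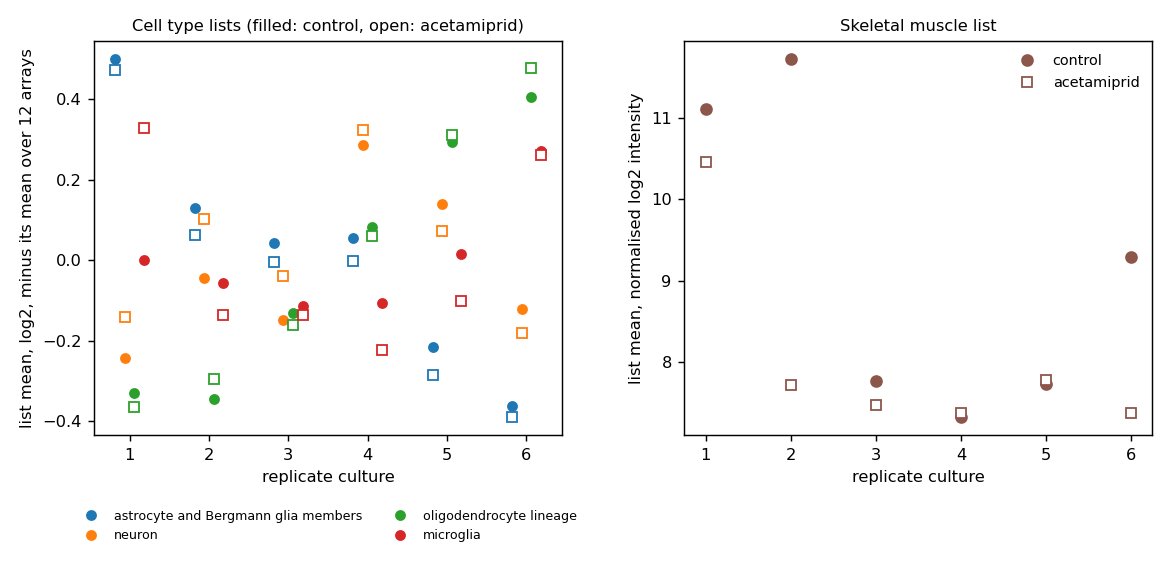
Left, mean log2 intensity of the members and of neuron, oligodendrocyte lineage and microglia markers, each minus its mean over the 12 arrays, by replicate culture (filled for control, open for ACE). The members' mean is high and that of oligodendrocyte markers low in replicate 1, and the reverse in replicate 6. Single members can differ from their mean, as Glul does in replicate 6 (0.41 above its own mean). Right, mean log2 intensity of 8 skeletal muscle genes, which is above 9 on control arrays 1, 2 and 6 and ACE array 1.

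The genes with the profile most like the mean of the 9 lead probes were sought over the 12 arrays, which share their cultures in pairs. Members, provisional gene names and probes without a gene name were left out, and 1 probe was kept per gene. The 8 highest were Mzt2b (r = 0.992), a protein of the gamma-tubulin ring, Rab11fip4 (r = 0.988), a Rab11-binding protein, Eya2 (r = 0.986), a transcriptional coactivator, Maob (r = 0.986), a monoamine oxidase, S100a1 (r = 0.985), a calcium-binding relative of S100b, Gstm7 (r = 0.984), a glutathione transferase, Ril (r = 0.984) and Gprc5b (r = 0.982), an orphan receptor. Among the members themselves, Gja1 (r = 0.956) and Gfap (r = 0.955) were most like that mean, which contains them. Least like it were Glul (r = 0.172) and the lead probes of Slc1a3 (r = 0.309) and Aqp4 (r = 0.331), so that the mean does not stand for every member. These values describe a pattern between cultures and do not bear on the exposure.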

How the data were processed

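Expression was measured on 12 one-colour arrays (6 control, 6 ACE). Per the file headers, the authors read spot intensities from the scans in Agilent Feature Extraction. Its version was 11.0.1.1 for replicate 1 and 11.5.1.1 for replicates 2 to 6. The processed intensity was deposited after background subtraction, and was not scaled between arrays. A second table deposited by the authors held log2 values, quantile normalised and centred per probe by their methods. Over 30367 probes, the correlation of these values with those computed here was 0.997 to 0.999 per array.

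Control spots were left out and spots marked as outliers were set to missing (4054 spots over the 12 arrays). The log2 processed intensity was quantile normalised and the spots of a probe were averaged. A probe was kept where at least 7 of 12 arrays had it over their 20th percentile, as in the study's methods, with at least 4 complete pairs, which left 23796 probes. No gene spot was saturated (0 spots). The difference was fitted per probe by limma 3.58.1 under R 4.3.3 (moderated, two-sided), keeping the replicate number as a block. Benjamini-Hochberg adjustment ran over all probes tested, at a threshold of 0.05. Differences between replicate cultures were tested with limma's F-test of the block. A rank test on pairs, named in the study's methods, was run as an exact two-sided signed-rank test. Pairing followed the culture lots of the study. Across probes, deviations from the group means correlated between a control and an ACE array at 0.449 to 0.912 within a number and at -0.439 to 0.390 between numbers. The paired fit was tested on simulated data.

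A gene was represented by its lead probe, the probe with the highest mean signal. Its other probes were named where direction or side of the threshold differed, and otherwise where probes of a gene disagreed between cultures, which was noticed in the values. From each companion list, at most 4 genes with the largest difference among those at an unadjusted p under 0.05 were named, or the gene with the lowest p where there was none. The 8 genes with the profile most like the mean of the lead probes, by Pearson's r over 12 arrays, were also named. Members and provisional or missing gene names were left out of that ranking. The members, the lists and the tests were chosen with earlier results of these data known. Precision is limited by the number of arrays. Alternatives covered the pairing, normalisation, background correction, source of values, filters, rank test, left-out replicates and probe averaging. Values restricted to pairs 3, 4 and 5 and to replicates 4, 5 and 6 were added after seeing the data. The R package data.table (version 1.17.8) read the files, and matplotlib 3.10.9 under Python 3.11.15 drew the figures. Sox9 was not analysed here because no probe bore this name, so that counts over members are out of 9 genes.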

Additional observations from a re-analysis of the deposited data

Results flagged for a closer look

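Over the 15 member probes, the control arrays, the ACE arrays and the pair differences gave 45 sets of 6 values, in which a single value far from the others was sought. In 1 of 45 sets such a value was found, where chance alone marks about 1 in 20. It was Gfap in control replicate 1, at a log2 intensity of 16.36 against 15.46 for the next highest control array, a gap of 0.629 of the whole range. The ACE array of the same culture was also the highest of its group, at 16.20. The second Gfap probe did not stand out in this way. Without replicate 1 the Gfap difference was -0.048 ± 0.043 (limma, unadjusted p = 0.305).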

How the results depend on the processing

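With 6 pairs of arrays, 0 of 15 member probes passed the adjusted threshold under all 15 alternatives run. Over all probes, 0 passed it too, except with the replicate as a random block, where 5 of 23796 did. At an unadjusted p under 0.05, limma called 2 member probes in the paired fit (3956 of all 23796 probes), 0 with no replicate block (81 of all), 0 with the replicate as a random block (3989) and 0 in pairs 3, 4 and 5 alone (1610 of 23621), and the exact signed-rank test called 1 (2755). Leaving out a replicate gave 1 to 3 (2820 to 4166 of all), and the filter on signal well above background gave 3 (3757 of 20184). The fall to 0 without the block came with wider standard errors, from 0.046 to 0.35 for Glul. Pairing by culture lot did not change the size of any difference. The median difference of the lead probes stayed between -0.076 and -0.035, and 7 or 8 of 9 genes were lower. Fabp7 changed sign, to 0.0040 with the deposited log2 table and to 0.017 without replicate 5, its range without a single replicate being -0.016 to 0.017; the cause was not tested. Differences between cultures were called for 13 to 15 of 15 member probes without a single replicate (16742 to 20106 of all), for 9 in pairs 3, 4 and 5 (7773 of 23621), and for 6 of 15 probes and 3 of 9 lead probes in replicates 4, 5 and 6 (2096 of 23525), where fewer samples were tested.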

Other observations

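Of the markers of other cells in these cultures, 0 had an adjusted p under 0.05 by limma, and those named here had an unadjusted p under 0.05 unless said otherwise, as did 9.73% (lower) and 6.9% (higher) of all probes. Among microglia markers, Aif1 (Iba1, an actin-binding protein) was higher in ACE by 0.19 ± 0.056 in 6 of 6 pairs, and Cx3cr1, the fractalkine receptor, was lower by -0.35 ± 0.075 in 6 of 6 pairs (limma, adjusted p = 0.206 and 0.147), while the median of the 8 markers was 0.036. Neuron markers were lower for 3 and higher for 6 genes (median 0.040), with Tubb3, a neuronal tubulin, at 0.15 ± 0.046. Granule cell markers were lower for 6 and higher for 2 (median -0.024), with the synaptic organiser Cbln1 as one of the higher, at 0.28 ± 0.091 in 6 of 6 pairs. Purkinje cell markers were lower for 4 and higher for 3 (median -0.014), with the calmodulin-binding protein Pcp4 at -0.12 ± 0.046 and lower in 6 of 6 pairs. Cnp, a myelin enzyme, was at -0.13 ± 0.048 and lower in 6 of 6 pairs, while the 10 oligodendrocyte lineage markers had a median of 0.015.

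Of the ependymal and choroid plexus markers, 3 were tested and lower in ACE on average, the ependymal cilia regulator Foxj1 at -0.13 ± 0.036, Tmem212 at -0.15 ± 0.050 and the choroid plexus gene Ttr at -1.57 ± 1.11 (limma, unadjusted p = 0.203), lower in 4 of 6 pairs and named after its value was seen. Muscle genes were lower for 8 of 8, with a median of -0.86 and the muscle transcription factor Myog at -0.75 ± 0.28. The list mean was 11.11, 11.72 and 9.29 in control replicates 1, 2 and 6 against 10.46, 7.72 and 7.37 in ACE, while it was 7.77 against 7.47 in replicate 3 and slightly higher in ACE in replicates 4 and 5 (7.32 against 7.38 and 7.72 against 7.77). Proliferation markers had a median of 0.034 over 5 genes, with the lowest p for Cdk1 (0.053 ± 0.032, limma unadjusted p = 0.143), and meningeal fibroblast markers one of 0.089 over 7, with the lowest p for the transporter Slc6a13 (0.39 ± 0.23, limma unadjusted p = 0.140), which was well above background on 3 of 6 arrays of each group.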
